A study of Mus musculus with 11 samples.

Results

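The 10 genes described here are 8 heavy chain genes of the MHC class I family (H2-K1, H2-D1, H2-Q1, H2-Q2, H2-Q4, H2-T10, H2-T22 and H2-T23), the shared light chain gene B2m, and Nlrc5, the gene of the transactivator of class I genes. They were taken by symbol from a count table whose rows named 31168 genes, and all 10 were among the 15911 genes that passed the filter on low counts. RNA came from the distal ileum, the end of the small intestine, of 11 mice, all of which had received dextran sodium sulfate, a polysaccharide that injures the intestinal lining. Mice of both groups carried floxed H2-Ab1, the gene of an MHC class II beta chain. The 6 WT libraries were H2-Ab1 fl/fl; Villin:Cre-, and the 5 dIEC libraries were H2-Ab1 fl/fl; Villin:Cre+, whose Cre recombinase is driven by the villin promoter, active in the intestinal epithelium. The series' design text gives both groups as Cre-negative. Each sample's own genotype label was followed here. For age, sex, dose, duration, cage and litter, nothing is given in the sources used here. The comparison asks how RNA of the ileum differs when H2-Ab1 is deleted in the epithelium, and it is read here for the class I genes.

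Class I molecules carry peptides from inside the cell to its surface, where CD8 T cells and natural killer cells read them. A classical molecule is a heavy chain, from H2-K1 or H2-D1, held by B2m. The H2-Q and H2-T genes encode non-classical heavy chains of narrower display. NLRC5 acts in the nucleus with the RFX, CREB and NFY proteins on the class I promoters, and interferon gamma raises their transcription. In the small intestine the epithelium and the lymphocytes lying within it both make class I.

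H2-Ab1 was first checked against the labels. Its level was 83.1 ± 27.4 CPM (counts per 1000000 scaled counts; SD, n = 6) in WT and 26.0 ± 9.87 CPM (n = 5) in dIEC, and the ranges of 47.5 to 112 CPM and 16.8 to 39.2 CPM did not overlap. The log2 fold change was -1.68 (SE 0.28; two-sided exact permutation p = 0.00433; edgeR adjusted p = 0.361). Total counts ran from 6603965 to 9681698 per library, with 26.2 to 49.2% of them ribosomal, and messenger RNA depth, as protein-coding counts without Lars2, was 1510296 to 3215574. Epithelial markers were abundant in all 11 libraries (15 genes summing to 2699 to 4739 CPM). Each library was taken as 1 mouse, since the design text gives 6 and 5 mice.

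All 10 class I genes had a higher mean in dIEC than in WT, and none of the 10 differences passed the adjusted test. With library size alone as the scaling, H2-T22 was lower in dIEC and the other 9 were higher. Log2 fold changes (dIEC minus WT) ran from 0.18 for H2-T22 to 0.93 for H2-Q2, with a median of 0.66, against a median of -0.007 over all 15911 genes. A log2 fold change above 0 was shared by 48.8% of all genes tested. At an unadjusted p under 0.05, 9 of the 10 (H2-T22 was the exception) were higher in dIEC, where the same held for 775 genes or 4.87% of those tested (921 genes or 5.79% were lower). With library size alone that count was 3 of 10, where 124 of all 15911 genes were higher and 2193 lower at that p. Adjusted p over all genes ran from 0.427 to 0.627 for the 10 in edgeR's quasi-likelihood test. DESeq2 and limma-voom likewise called 0 of them, with 9 at an unadjusted p under 0.05 in each. Of all genes, 1 (Mt1, a metallothionein gene) passed, which is 0.00628%. Without WT replicate 8, 213 genes higher and 106 lower passed edgeR's adjusted test, and again 0 of the 10, the lowest adjusted p being 0.0507 for H2-D1. No member had every dIEC library above every WT library, a separation that 37 genes or 0.233% of those tested had.

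The 5 dIEC libraries were not alike in these genes. The summed level of the 10 was 408 to 612 CPM over the WT libraries. It was 1002 CPM in dIEC replicate 1, 907 CPM in dIEC replicate 3, 673 CPM in dIEC replicate 5, 503 CPM in dIEC replicate 6 and 1005 CPM in dIEC replicate 11. Replicates 1, 3 and 11 were thus the high libraries, replicate 5 lay just above the WT range, and replicate 6 lay inside it. In whole tissue, more cells of a class I-rich type and more RNA per cell cannot be told apart.

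**Figure D1:**
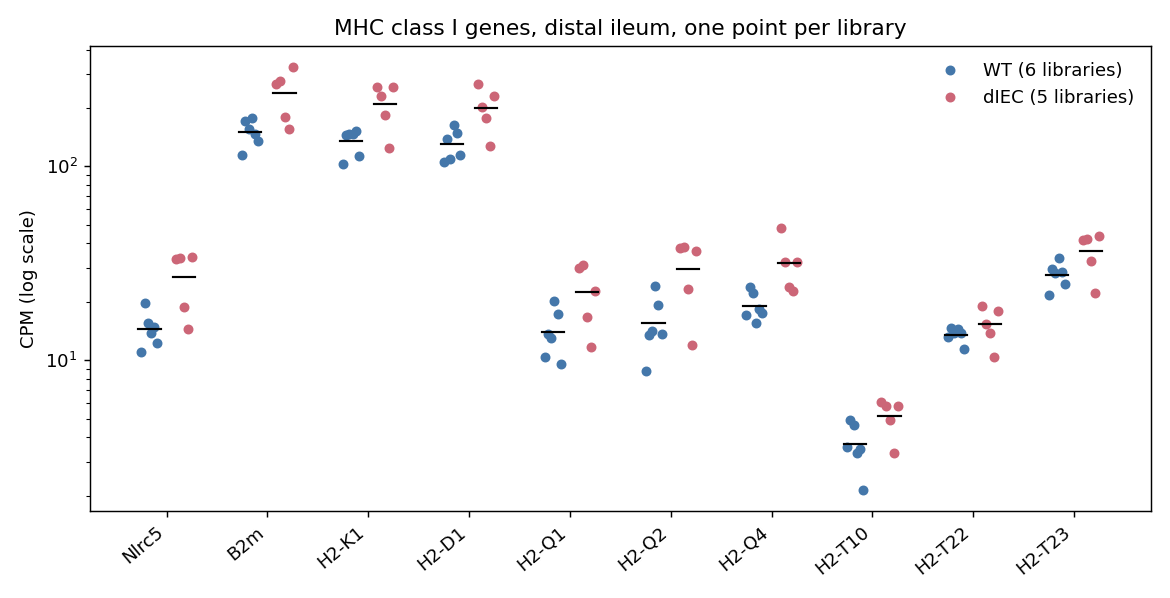
Level of each of the 10 class I genes in CPM (log axis) in the 6 WT and 5 dIEC libraries, 1 point per library, with a bar at each group's mean. For every gene the lowest dIEC point falls at or below the highest WT point, while at least 3 of the 5 dIEC points lie above all WT points.

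Promoters of 7 of the 10 genes could be read, as the 250 bases before the transcription start in RefSeq (GRCm38.p6). H2-Q1, H2-T10 and Nlrc5 had no entry there. A promoter is shown for a classical heavy chain (H2-K1, chr17:34000334-34000583, minus strand, before the downstream one of 2 listed starts), the light chain (B2m, chr2:122147437-122147686, plus strand), and the genes with the largest and smallest fold change (H2-Q2, chr17:35342057-35342306, plus strand, and H2-T22, chr17:36042743-36042992, minus strand). Each is written 5′ to 3′ on the gene's strand and ends at the base before the start. Capitals mark matches, on either strand, to GGGATTCCC (a kappa B site), TTTCACTT (the class I form of an interferon element), GAAANNGAAA (an interferon-stimulated element), TGACG (the core of the X2 box bound by CREB), CCAAT (the Y box bound by NFY) and TATAAA. These letters were chosen after the promoters had been seen.
H2-K1: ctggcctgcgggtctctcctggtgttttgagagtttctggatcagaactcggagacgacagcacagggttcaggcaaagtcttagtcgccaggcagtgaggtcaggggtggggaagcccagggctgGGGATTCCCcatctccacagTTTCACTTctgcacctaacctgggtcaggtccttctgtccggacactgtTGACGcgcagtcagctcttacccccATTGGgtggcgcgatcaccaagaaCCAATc
B2m: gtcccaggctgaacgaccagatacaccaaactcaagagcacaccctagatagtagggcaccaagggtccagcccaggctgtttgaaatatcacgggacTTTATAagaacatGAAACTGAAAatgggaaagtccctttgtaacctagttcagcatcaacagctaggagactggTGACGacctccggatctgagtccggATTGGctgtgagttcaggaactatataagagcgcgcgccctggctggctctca
H2-Q2: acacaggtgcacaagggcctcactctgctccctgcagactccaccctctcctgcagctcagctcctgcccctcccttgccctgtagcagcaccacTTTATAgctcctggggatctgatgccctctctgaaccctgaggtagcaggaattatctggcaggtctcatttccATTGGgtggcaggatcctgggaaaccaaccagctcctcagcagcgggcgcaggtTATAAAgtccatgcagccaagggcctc
H2-T22: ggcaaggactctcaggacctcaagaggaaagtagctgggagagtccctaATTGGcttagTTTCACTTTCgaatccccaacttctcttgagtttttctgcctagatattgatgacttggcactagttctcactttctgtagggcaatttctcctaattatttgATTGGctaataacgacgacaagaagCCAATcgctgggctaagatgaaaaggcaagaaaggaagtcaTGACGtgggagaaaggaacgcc

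CCAAT was found in 7 of the 7 promoters, and in 33.8% of 32851 promoter windows of the same length. The sequence GGGATTCCC stood in H2-K1 and H2-D1 alone (2 of 7), its first base 124 bases before the start in H2-K1 and 170 before it in H2-D1; it occurred in 0.301% of all windows. TTTCACTT was found in 4 of 7 (H2-K1, H2-D1, H2-Q4 and H2-T22; 1.36% of windows). GAAANNGAAA was found in 3 of 7 (B2m, H2-T22 and H2-T23; 2.98%), and in H2-T22 it overlaps TTTCACTT. TGACG was in 5 of 7 (17.8%) and TATAAA in 4 of 7 (12.4%). The TATAAA match of B2m was on the other strand, its first base 152 bases before the start. The last CCAAT began 6 bases before the start in H2-K1 and 53 before it in H2-D1. Matches and distances thus depend on which start is annotated. In H2-Q2, the gene with the largest fold change, the matches were to CCAAT and TATAAA alone. H2-T22, with the smallest, held both interferon elements, 3 CCAAT matches and TGACG. These are matches of letters in a window and not measured binding. No order, spacing or strand was required, so a match need not be the box or element it is named for.

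Nlrc5 (8:94434356-94527272, plus strand, GRCm38) had the second largest fold change of the 10. Its level in WT ran from 11.1 to 19.6 CPM with a median of 14.3. In dIEC it was 33.1, 33.6, 18.7, 14.6 and 34.1 CPM in replicates 1, 3, 5, 6 and 11. Thus 3 dIEC libraries stood together at 33.1 to 34.1 CPM, and the other 8 libraries of both groups lay at 11.1 to 19.6 CPM. The means were 14.5 ± 3.0 CPM (SD, n = 6) and 26.8 ± 9.40 CPM (n = 5), a log2 fold change of 0.89 (SE 0.22; two-sided exact permutation p = 0.0346). Nlrc5 shared no stretch of 50 bases of its longest transcript with another annotated gene.

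B2m (2:122147686-122153083, plus strand) was the most abundant of the 10 and lies apart from the MHC, on chromosome 2. WT libraries held 114 to 177 CPM with a median of 151. The dIEC libraries held 266, 275, 179, 155 and 325 CPM in replicates 1, 3, 5, 6 and 11. Replicate 11 was the highest, replicate 5 was just above the WT maximum, and replicate 6 was near the WT median. The log2 fold change was 0.68 (SE 0.19), with an exact permutation p of 0.0216, or 0.169 with library size alone as the scaling. As for Nlrc5, no 50-base stretch of its transcript occurs in another annotated gene, though each overlaps a gene on the opposite strand (Patl2 for B2m, 9330175E14Rik for Nlrc5).

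The classical heavy chains H2-K1 (17:33996017-34000347, minus strand) and H2-D1 (17:35262730-35267499, plus strand) gave nearly the same picture. H2-K1 was at 103 to 151 CPM in WT (median 146) and at 255, 231, 183, 124 and 256 CPM in dIEC replicates 1, 3, 5, 6 and 11. H2-D1 was at 105 to 162 CPM in WT (median 127) and at 266, 203, 177, 128 and 231 CPM in the same dIEC order. For both genes 4 of the 5 dIEC libraries exceeded the highest WT library, and replicate 6 fell within the WT range. Log2 fold changes were 0.64 (SE 0.19) for H2-K1 and 0.63 (SE 0.18) for H2-D1, with exact permutation p = 0.0216 for each. WT libraries had 0.971 ± 0.123 counts of H2-D1 per count of H2-K1 (SD, n = 6), and dIEC libraries had 0.966 ± 0.0741 (n = 5), with an exact permutation p of 0.965.

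Among the H2-Q genes, which lie in a row on chromosome 17 beside H2-D1, H2-Q2 (17:35342242-35346762) had the largest fold change and the widest spread. It was at 8.80 to 24.2 CPM in WT (median 13.9) and at 37.9, 38.4, 23.2, 12.03 and 36.7 CPM in dIEC replicates 1, 3, 5, 6 and 11 (log2 fold change 0.93, SE 0.30; exact permutation p = 0.0476). Here dIEC replicate 5 no longer exceeded the WT maximum, which was WT replicate 8. The exact permutation p of H2-Q2 was 0.0952 with library size alone as the scaling. H2-Q4 (17:35379617-35385290) was at 15.5 to 23.7 CPM in WT (median 17.9) and at 48.0, 32.2, 23.8, 22.6 and 32.2 CPM in the same dIEC order (0.74, SE 0.18; exact permutation p = 0.00866). H2-Q4 came nearest to separated groups, with 5 of 6 WT libraries below the lowest dIEC library. Its exact permutation p was 0.126 with library size alone as the scaling. H2-Q1 (17:35320405-35325099) was at 9.54 to 20.3 CPM in WT (median 13.3) and at 29.8, 30.9, 16.7, 11.7 and 22.8 CPM in dIEC (0.68, SE 0.25; exact permutation p = 0.0693). For H2-Q1, 3 of the 5 dIEC libraries lay above the WT maximum.

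Of the 10, the 3 H2-T genes had the smallest fold changes. H2-T23 (17:36029773-36032855, minus strand) encodes the heavy chain of Qa-1, which shows signal peptides of other class I chains to the CD94/NKG2 receptors. It was at 21.6 to 33.7 CPM in WT (median 28.3) and at 41.5, 42.0, 32.4, 22.3 and 43.9 CPM in dIEC replicates 1, 3, 5, 6 and 11 (log2 fold change 0.40, SE 0.16; exact permutation p = 0.0649). H2-T10 (17:36115876-36121465) and H2-T22 (17:36037128-36042747), both on the minus strand, are close copies whose products are ligands of some gamma-delta T cell receptors. H2-T10, the scarcest of the 10 and annotated as a polymorphic pseudogene, was at 2.15 to 4.91 CPM in WT (median 3.51) and at 6.07, 5.84, 4.89, 3.32 and 5.8 CPM in dIEC (0.49, SE 0.21; exact permutation p = 0.0563). Its counts were only 16 to 52 reads per library. H2-T22 was at 11.4 to 14.6 CPM in WT (median 13.8) and at 18.9, 15.4, 13.8, 10.44 and 17.95 CPM in dIEC, where replicate 6 was the lowest of all 11 libraries. Its log2 fold change was 0.18 (95% interval -0.12 to 0.48; exact permutation p = 0.238), and with library size alone as the scaling it turned to -0.033.

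**Figure D2:**
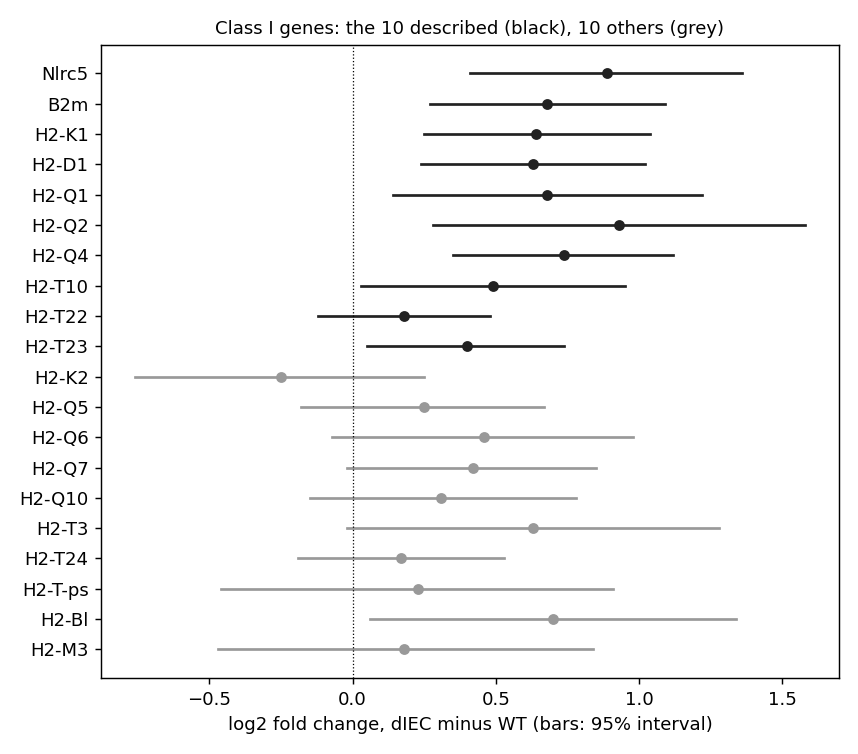
Log2 fold change of dIEC minus WT with its 95% interval from edgeR, for the 10 genes described (black) and the 10 other class I heavy chain genes that passed the filter (grey). The intervals of 9 black genes lie above 0, and that of H2-T22 reaches from -0.12 to 0.48. Of the grey genes, H2-Bl, H2-Q5, H2-K2 and H2-T-ps are annotated as pseudogenes, as is H2-T10 of the black.

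Ratios between genes of the same library do not depend on how libraries are scaled. A set of 7 such ratios had been chosen to be tested together. The genes in them were chosen with earlier results of these data known, so their p-values are not those of a fresh test. The summed H2-T10, H2-T22 and H2-T23 count per count of H2-K1 plus H2-D1 was 0.184, 0.172, 0.182, 0.167, 0.153 and 0.168 in WT replicates 2, 4, 7, 8, 9 and 12. It was 0.128, 0.146, 0.142, 0.143 and 0.139 in dIEC replicates 1, 3, 5, 6 and 11. All 5 dIEC libraries lay below all 6 WT libraries, among them replicate 6, whose H2-K1 and H2-D1 levels were in the WT range and whose H2-T22 level was below it. The mean fell from 0.171 ± 0.0114 (SD, n = 6) to 0.140 ± 0.00716 (n = 5), with a two-sided exact permutation p of 0.00433, the smallest these groups allow, and 0.0303 after Benjamini-Hochberg adjustment over the 7 ratios. With any 1 library left out, the exact permutation p was 0.00794 or 0.00952, again the smallest those groups allow. No other of the 7 ratios had so small a p. The adjusted p was then 0.0556 to 0.0667, above the threshold. Split by gene after the values had been seen, and so given without a test, the share was 0.0519 in WT and 0.0377 in dIEC for H2-T22, 0.105 and 0.0891 for H2-T23, and 0.0140 and 0.0128 for H2-T10. H2-T22 was the member whose share separated the groups in full, at 0.0461 to 0.0632 in WT and 0.0355 to 0.0415 in dIEC.

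The other 6 ratios, given with WT first and dIEC second, did not pass. The H2-Q sum per H2-K1 plus H2-D1 averaged 0.184 ± 0.00834 over WT and 0.201 ± 0.0252 over dIEC libraries (exact permutation p = 0.199, adjusted 0.348), with dIEC replicates 1 and 3 at 0.222 and 0.234 and the other 3 at 0.177 to 0.189. B2m per H2-K1 plus H2-D1 was 0.569 ± 0.0439 and 0.585 ± 0.0768 (exact permutation p = 0.667, adjusted 0.778), a difference smaller than the spread of the ratio in either group. Nlrc5 per B2m was 0.0969 ± 0.0123 and 0.110 ± 0.0129 (exact permutation p = 0.108, adjusted 0.253). B2m per Tap1, the gene of a peptide transporter subunit, was 8.89 ± 1.29 and 8.05 ± 1.91 (exact permutation p = 0.394, adjusted 0.552). H2-K1 per summed epithelial marker was 0.0422 ± 0.00949 and 0.0525 ± 0.00968 (exact permutation p = 0.108, adjusted 0.253). H2-D1 per H2-K1, given above, had an adjusted p of 0.965 (exact permutation).

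**Figure D3:**
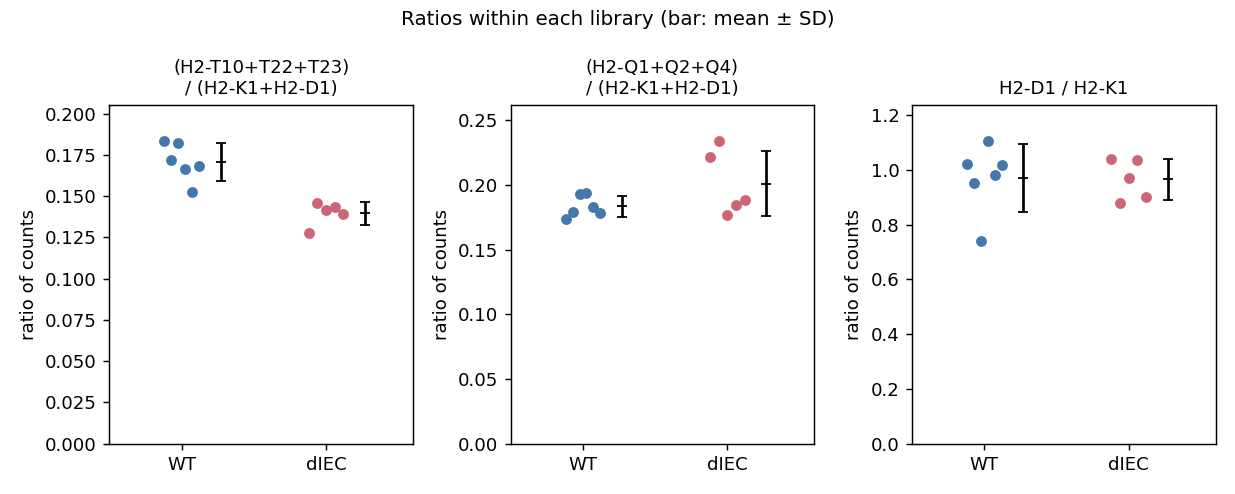
Ratio of counts within each library (linear axes from 0) for the H2-T sum and the H2-Q sum per H2-K1 plus H2-D1, and for H2-D1 per H2-K1, 1 point per library with mean ± SD beside it. The H2-T ratio is 0.153 to 0.184 in the 6 WT and 0.128 to 0.146 in the 5 dIEC libraries, while the other ratios overlap.

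Read overlap between paralogs, and with antisense genes at the same place, bears on these values. Stretches were matched on either strand, so the shares below count both kinds. Of all 50-base stretches of the longest transcript, 58.5% in H2-T22, 50.1% in H2-T10 and 36.9% in H2-Q4 also occur in another annotated gene. The share was 16.1% in H2-Q1, 16.0% in H2-T23, 14.3% in H2-D1, 8.74% in H2-Q2 and 8.11% in H2-K1. H2-T22 shares 32.0% with H2-T10 and 31.7% with the antisense gene A930015D03Rik, which was at 2.21 CPM in WT and 1.58 CPM in dIEC. H2-T10 shares 30.3% with H2-T22 and 26.4% with the antisense gene BC023719, at 0.255 CPM in WT and 0.352 CPM in dIEC. H2-Q4 shares 15.6% with the antisense gene Gm11131, at 5.73 CPM in WT and 8.87 CPM in dIEC. At 100 bases the shares were 38.1%, 29.7% and 14.6% for H2-T22, H2-T10 and H2-Q4, and 0% for H2-K1 and H2-Q2. Read length and the handling of multi-mapping reads were not stated in the labels or notes, so levels of single H2-Q and H2-T genes are uncertain, and the part of shared reads in the H2-T ratio was not tested.

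Levels of different genes were compared per kilobase of merged exon, as CPM per kilobase in WT. B2m stood far above the rest at 174 ± 27.3 (SD, n = 6). H2-D1 at 50.3 ± 9.10 and H2-K1 at 45.7 ± 7.06 came next with overlapping ranges, and their order swapped when the longest transcript gave the length (61.8 and 71.7). Then came H2-T23 at 9.58 ± 1.44, H2-Q4 at 7.33 ± 1.23, H2-Q2 at 7.16 ± 2.46, H2-Q1 at 4.90 ± 1.44 and H2-T22 at 3.97 ± 0.341, where the WT range of each overlapped that of the next. Nlrc5 at 1.71 ± 0.354 and H2-T10 at 1.08 ± 0.293 were lowest and overlapped each other, but not H2-T22. In dIEC the means were 279, 77.9 and 71.3 CPM per kilobase for B2m, H2-D1 and H2-K1, and for H2-Q2 and H2-T23 they were 13.6 and 12.6. The place of H2-Q2 depends on the length used: per kilobase of longest transcript it was at 12.4 in WT, above H2-T23 at 10.47 and H2-Q4 at 7.33, and at 23.5 in dIEC, above H2-T23 at 13.8.

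Within WT the H2-Q genes split in 1 library, singled out after its values were seen. WT replicate 8 had the highest WT level of H2-Q1 (20.3 CPM) and H2-Q2 (24.2 CPM) and the lowest of H2-Q4 (15.5 CPM). H2-Q6 and H2-Q7, the genes of Qa-2 heavy chains, were also at their WT minimum there (13.0 and 17.9 CPM). The count of H2-Q4 per count of H2-Q2 was 0.643 in that library and 0.947 to 1.94 in the other 5 WT libraries. In dIEC it was 0.839 to 1.88, so no dIEC library was as low as WT replicate 8. WT replicate 8 also had the highest epithelial marker sum of all libraries, 4739 CPM, and the part of that in the split was not tested.

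**Figure D4:**
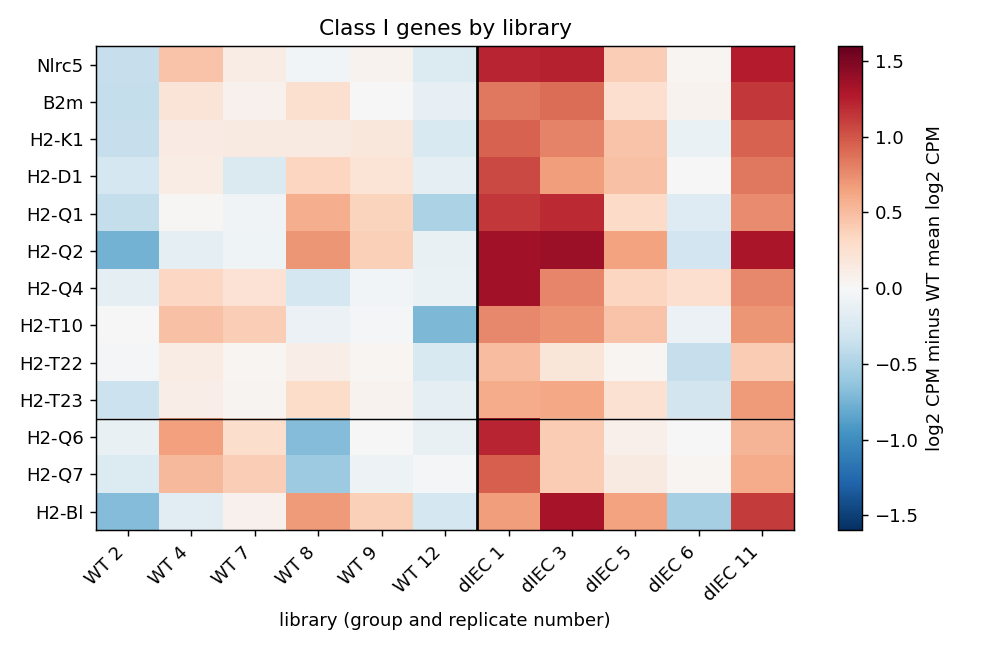
Log2 CPM of the 10 genes and of H2-Q6, H2-Q7 and H2-Bl in each library, minus the gene's WT mean (red higher, blue lower), WT left of the vertical line. dIEC replicates 1, 3 and 11 are red in all 10 genes, dIEC replicate 6 is near 0 or blue in most, and WT replicate 8 is red for H2-Q1 and H2-Q2 and blue for H2-Q4, H2-Q6 and H2-Q7.

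Nlrc5 was set beside the other 9 genes within the 6 WT libraries only, because the 3 high dIEC libraries form a cluster of their own that would set any pooled correlation. Over all 6, on log2 CPM, r with Nlrc5 was highest for H2-Q4 (r = 0.796 by Pearson, exact permutation p = 0.0528; Spearman rho = 0.829, exact permutation p = 0.0583). H2-K1 followed with r = 0.781 (exact permutation p = 0.0778; rho = 0.486, p = 0.356) and B2m with r = 0.762 (exact permutation p = 0.0750; rho = 0.657, p = 0.175). The lowest was H2-Q2 (r = 0.300, exact permutation p = 0.582; rho = 0.200, p = 0.714). None of the 9 relations passed adjustment, the lowest adjusted p being 0.233 for r and 0.394 for rho (exact permutation). Without WT replicates 4 and 2, the extremes of Nlrc5, the order changed: r was highest for H2-T10 (0.969, from 0.701), then 0.884 for H2-K1, 0.766 for H2-T22 and 0.617 for H2-Q4. It was 0.392 for B2m, 0.153 for H2-Q2 and 0.0436 for H2-D1 (from 0.421), so the order rests on those libraries.

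Among the other heavy chain genes, 10 of the 15 with counts passed the filter on low counts. Of these 10, 9 had a fold change above 0, as did 48.8% of all genes tested. At an unadjusted p under 0.05, 1 (H2-Bl) was higher, as were 4.87% of all genes. The median log2 fold change of these 10 was 0.28. Among them, H2-Bl and H2-Q5 are annotated as polymorphic pseudogenes, and H2-K2 and H2-T-ps as unprocessed pseudogenes. H2-Q7 was at 27.8 CPM in WT and 37.1 CPM in dIEC (0.42), H2-Q6 at 21.9 and 30.2 CPM (0.46), H2-Bl at 13.0 and 21.0 CPM (0.70) and H2-Q5 at 6.15 and 7.31 CPM (0.25). H2-T3, named outside the rule for its role as the heavy chain of the thymus leukaemia antigen of the small-intestinal epithelium, was at 4.58 ± 1.61 CPM in WT and 7.19 ± 2.83 CPM in dIEC (log2 fold change 0.63, SE 0.30; edgeR adjusted p = 0.471).

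Genes that supply and load class I peptides also had higher means in dIEC. All 13 genes of peptide supply and loading had a fold change above 0, 7 had an unadjusted p under 0.05, 0 passed the adjusted test, and the median was 0.33. Of all genes tested, 48.8% were above 0 and 4.87% were higher at that unadjusted p. The abundant general chaperones had small differences, with Canx at 209 CPM in WT and 239 CPM in dIEC (0.19), Calr at 152 and 170 CPM (0.16) and Pdia3 at 107 and 116 CPM (0.12). Tapbp, which encodes tapasin, the editor that bridges class I to the peptide transporter, was at 62.5 and 82.3 CPM (0.40). Of the 15 transcription factor genes, 10 were above 0 with a median of 0.08, and Ciita, the class II transactivator gene, was at 17.3 and 26.3 CPM (0.60). Irf1 was at 51.3 and 59.3 CPM (0.21), Nfkb1 at 36.6 and 38.3 (0.07), Creb1 at 31.6 and 31.2 (-0.02) and Irf2 at 29.4 and 30.8 (0.07). The 7 genes of the RFX, CREB and NFY partners of NLRC5 had log2 fold changes of -0.12 to 0.16, beside 0.89 for Nlrc5 itself. Of the receptors and co-receptors that bind class I, 3 of 14 passed the filter: Cd8a at 2.99 and 6.58 CPM (1.15), Pirb at 3.10 and 3.21 (0.02) and Cd160 at 1.38 and 1.84 (0.46).

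Markers of lymphocytes and of epithelium had higher means in dIEC, as the class I genes did. Over all genes tested, 48.8% had a fold change above 0. At an unadjusted p under 0.05, 4.87% of all genes were higher and 5.79% were lower. All 12 measured genes of the list for intraepithelial and cytotoxic lymphocytes had a fold change above 0, 8 with an unadjusted p under 0.05, with a median of 0.81. Their list summed to 26.5 to 55.4 CPM in WT and 46.4 to 93.6 CPM in dIEC. Gzma, a granzyme gene, was at 6.22 CPM in WT and 13.0 CPM in dIEC (1.09), Itgae, of the CD103 integrin, at 6.65 and 11.5 (0.80), Cd247 at 5.67 and 6.26 (0.16) and the chemokine gene Ccl5 at 3.30 and 7.68 (1.24). All 15 epithelial markers were above 0 (2 with an unadjusted p under 0.05; median 0.28), with sums of 2699 to 4739 CPM in WT and 3333 to 4466 CPM in dIEC. Fibroblast markers ran the other way, with 0 of 10 above 0, 8 lower at an unadjusted p under 0.05, and sums of 303 to 954 CPM against 295 to 495 CPM. Smooth muscle markers had 0 of 10 above 0 and 1 lower (sums 2355 to 4840 against 1348 to 3304 CPM), and endothelial markers 1 of 11 above 0 and 3 lower (52.3 to 121 against 59.9 to 82.3 CPM). Macrophage and dendritic cell markers (4 of 13 above 0; 79.1 to 198 against 118 to 189 CPM) and B and plasma cell markers (3 of 4 above 0; 116 to 399 against 164 to 459 CPM) had medians of -0.05 and 0.05. None of these lists held a gene at 0 in every library, Cd8b1 and Trdc of the lymphocyte list were at 0 in at least 1 WT library, and 0 genes of any list passed edgeR's adjusted test.

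With the lymphocyte score of each library as a covariate, the median log2 fold change of the 10 class I genes was 0.44, and 0 of them had an unadjusted p under 0.05 in place of 9. Calls fell over all genes as well, from 775 to 149 of 15911 higher at that p. With the epithelial score the median was 0.43 with 6 of the 10 genes (305 of all genes), and with the smooth muscle score it was 0.45 with 6 genes (285 of all). With both the epithelial and lymphocyte scores, a fit added after the values were seen, it was 0.31 with 0 genes (248 of all). With the ribosomal share as covariate it was 0.72 with 9 genes (481 of all). The lymphocyte sums were higher in dIEC, so a fit with that score also removes part of the group difference. The highest lymphocyte sums, 93.6 CPM in dIEC replicate 11 and 81.6 CPM in dIEC replicate 1, stood in the libraries with the highest class I sums (1005 and 1002 CPM), and the lowest, 26.5 CPM in WT replicate 2, in the library with the lowest (408 CPM). In between the order differed: dIEC replicate 6 had 61.4 CPM of lymphocyte markers and a class I sum of 503 CPM, dIEC replicate 3 had 59.4 and 907 CPM, and WT replicate 12 had 55.4 and 454 CPM. Epithelial sums were 4466, 4202, 4068, 3626 and 3333 CPM in dIEC replicates 11, 3, 1, 5 and 6. Replicate 6 was thus the lowest dIEC library in both the epithelial and the class I sum. WT replicate 8 was the highest WT library in both (4739 and 612 CPM). WT replicate 4 had the lowest epithelial sum, 2699 CPM, and a class I sum of 575 CPM. The part of lymphocyte or epithelial content in the class I difference cannot be told apart from the group by these values.

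**Figure D5:**
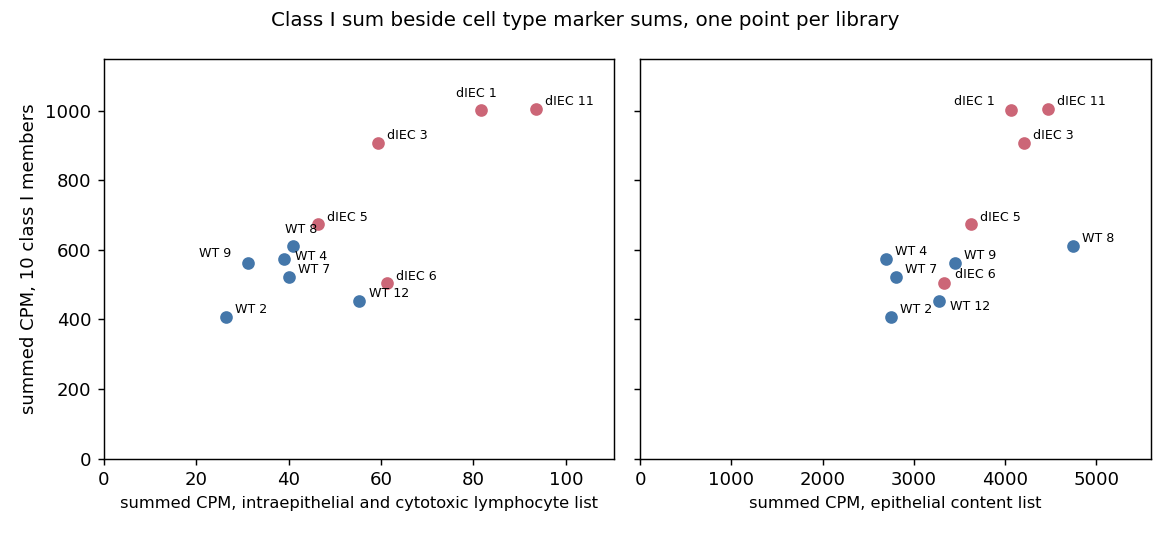
Summed CPM of the 10 class I genes (vertical axis) against the summed CPM of the lymphocyte list (left) and of the epithelial list (right), 1 labelled point per library, WT blue and dIEC red. The 3 libraries with the highest class I sums, dIEC replicates 1, 3 and 11, are at 59.4 to 93.6 CPM for lymphocyte markers, and dIEC replicate 6 at 61.4 CPM has a class I sum of 503 CPM. On the right, dIEC replicate 6 has the lowest epithelial sum of the dIEC libraries, 3333 CPM, and WT replicate 4 the lowest of WT, 2699 CPM.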

How the data were processed

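Per the labels' protocols, total RNA was extracted from Trizol with a Direct-zol kit and made into libraries with a directional NEBNext Ultra kit. Reads were aligned with TopHat2 to mm10, per the submitters' processing notes. For the counter, its strand setting and the annotation, no name is given in the sources used here. Deposited by the authors were whole-number counts per gene, not normalized, held in 1 table of 31169 rows, of which 1 named no gene (0.00778 to 0.0147% of counts) and was left out.

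Counts were filtered with filterByExpr, scaled with TMM and tested with the quasi-likelihood test of edgeR 4.0.16 in R 4.3.3 (robust, no covariates), with Benjamini-Hochberg adjustment over 15911 genes and a threshold of 0.05. CPM are counts per 1000000 TMM-scaled counts. DESeq2 1.42.0 and limma 3.58.1 were alternatives. The edgeR script was tested on simulated data. Single values and ratios had two-sided exact permutation tests over 462 splits (SciPy 1.17.1), and single-gene exact p-values are unadjusted. All p-values refer to the spread among these libraries, which may be in part technical. A planned correlation over all 11 libraries was replaced by one within WT. Coordinates and lengths came from GENCODE vM21 (GRCm38), promoters from RefSeq.

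The 10 genes and all lists were chosen with earlier results of these data known. Named from each list are the 4 genes with the highest mean CPM, and as alike in pattern the 10 genes with the highest Pearson r. Exceptions are said to be such, and some genes of these sets are not reported here.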

Additional observations from a re-analysis of the deposited data

How the results depend on the processing

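The median log2 fold change of the 10 class I genes was 0.31 to 0.79 over 25 alternative settings. With 1 library left out at a time, 6 to 10 of them were higher at an unadjusted p under 0.05. Of the 15573 to 16358 genes tested in those fits, 471 to 1763 were higher at that p. The count of the 10 was 3 with library size alone as the scaling. It was 0 with the lymphocyte covariate or, added after the values were seen, with epithelial and lymphocyte covariates together, where the median was 0.31. With library size alone the median of all genes was -0.223, the unadjusted calls were 124 higher and 2193 lower (5.35% higher, against 45.7%), H2-T22 had a log2 fold change of -0.033 and a mean CPM lower by 0.347 in dIEC (difference -0.347), and the members' median less that of all genes was 0.69, against 0.67. Upper-quartile factors gave 33.5% higher. Fold changes of single members kept their sign in 249 of 250 fits.

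The difference in the H2-T ratio was -0.0349 to -0.0283 with 1 library left out. For H2-D1 per H2-K1, with -0.00477 over all libraries, it was -0.0505 to 0.0222, and the mean log2 ratio gave 0.000224; for B2m per H2-K1 plus H2-D1 it was -0.00413 to 0.0385. The cause of these reversals was not tested. No paired analysis was run, because the sources used here give no cage, litter or pairing of the mice. Depth limits H2-T10 most, at 16 to 52 reads per library. Adjusted p stayed above 0.05 for all 10 genes in every setting run.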

Other observations

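Of the 6 class I-like genes outside the MHC that passed the filter, 2 had a log2 fold change above 0, and the median was -0.25. Of all genes tested, 48.8% were above 0. Fcgrt, the gene of the neonatal Fc receptor, whose product also pairs with B2m, was at 22.05 ± 2.24 CPM in WT and 27.3 ± 5.73 CPM in dIEC (log2 fold change 0.31, SE 0.14; edgeR adjusted p = 0.444). Mill2 was at 5.92 ± 2.13 and 3.69 ± 0.608 CPM (-0.69, SE 0.24; edgeR adjusted p = 0.427). Mr1, whose product shows vitamin metabolites to MAIT cells, was at 2.97 and 2.36 CPM (-0.36), and the iron regulator gene Hfe at 2.67 and 2.45 CPM (-0.15).

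Among 6239 protein-coding genes with a mean of at least 10 CPM, those whose log2 CPM most resembled the mean of H2-K1, H2-D1 and B2m over the 11 libraries were Soat2, a cholesterol acyltransferase gene (Pearson r = 0.981), the peptide transporter gene Tap1 (0.963), the ubiquitin ligase gene Dtx3l (0.954) and the invariant chain gene Cd74 (0.953). They were followed by 2210016F16Rik, Xdh, Tap2, the class II alpha chain gene H2-Aa, Parp9 and Lgals9 (0.937 to 0.923). Soat2 was at 14.3 CPM in WT and 26.3 CPM in dIEC (log2 fold change 0.88). When each gene was centred on its group mean, Soat2 (0.962), Tap1 (0.941), Dtx3l (0.938) and Xdh (0.925) were again in the first 10, and Zfp687, Tlr3, Smdt1, Psme4 and Ctsb were also among them. The cluster of dIEC replicates 1, 3 and 11 can set such pooled values of r, as it can for Nlrc5. Centring leaves that cluster above dIEC replicates 5 and 6, so it bears on the centred values as well. All genes share library, scaling and tissue makeup, so these values of r are descriptions and have no p.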
